A study of Mus musculus with 44 samples.

Results

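The genes described here form a set of 38 named for B cell receptor signalling and B cell identity: the receptor's signalling chains and surface partners, its kinases, adaptors, lipid enzymes, exchange factors and phosphatases, and several other genes of B cells. Members were all probe sets annotated to exactly 1 of these symbols on the array. A probe set was found for 36 of the 38 genes, with 82 probe sets of the 45101 on the array, and Lyn and Cd38 were not analysed here. Each gene was represented by its probe set with the highest mean, and 34 members were tested among 11969 of 18193 genes. Cr2, the complement receptor of the B cell coreceptor, and Fcer2a, the low-affinity IgE receptor, stayed below the filter, with group means of at most 5.64 and 5.97 log2 units against a filter at 6.21.

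The cells were CH12.LX, a mouse B lymphoma line that starts to secrete IgM when it is activated. They were plated at 100000 cells per ml, activated with bacterial lipopolysaccharide (LPS) and given either 10 nM TCDD, a dioxin that activates the aryl hydrocarbon receptor, or the vehicle DMSO at 0.01%. TCDD and DMSO cultures were harvested at 8, 12, 24, 36 and 48 h, and untreated cells at 0 h. Each of the 11 groups had 4 arrays, and cultures with the same replicate number were treated and harvested on the same day. All 44 samples came from 1 cell line in culture, so the p-values measure the spread between culture days of that line, and the number of arrays limits the precision.

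The B cell receptor is a membrane immunoglobulin whose signal is passed on by the chains encoded by Cd79a and Cd79b. Src family kinases and SYK phosphorylate these chains, the adaptor BLNK then brings BTK and phospholipase C gamma together, and calcium, protein kinase C, phosphoinositide 3-kinase and small GTPases carry the signal on to NFAT and NF-κB. Receptors with inhibitory motifs, such as CD22 and CD72, recruit the phosphatase SHP-1, encoded by Ptpn6, which damps the signal. B cells that become plasma cells are known to lose much of this machinery.

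Promoter windows of 300 bases, with 250 before and 50 after the annotated start, were available from RefSeq (GRCm38.p6) for 29 members in 38 windows. Ptpn6 (chr6:124738660-124738959, minus strand) and Niban3 (chr8:71597458-71597757, plus strand) are shown because they had the largest rise and fall with TCDD in the set. Bcl10 (chr3:145924012-145924311, plus strand), Cd22 (chr7:30878979-30879278, minus strand) and Blnk (chr19:40994172-40994471, minus strand) are shown because their windows held a searched motif. Each runs 5′ to 3′ along the gene, with motif matches in capitals.
Ptpn6: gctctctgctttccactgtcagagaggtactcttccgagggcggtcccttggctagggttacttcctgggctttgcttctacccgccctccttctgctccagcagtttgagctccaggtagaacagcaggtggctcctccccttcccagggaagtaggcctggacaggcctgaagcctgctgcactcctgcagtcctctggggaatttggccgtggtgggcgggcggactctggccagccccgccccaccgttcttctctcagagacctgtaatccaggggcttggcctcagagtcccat
Niban3: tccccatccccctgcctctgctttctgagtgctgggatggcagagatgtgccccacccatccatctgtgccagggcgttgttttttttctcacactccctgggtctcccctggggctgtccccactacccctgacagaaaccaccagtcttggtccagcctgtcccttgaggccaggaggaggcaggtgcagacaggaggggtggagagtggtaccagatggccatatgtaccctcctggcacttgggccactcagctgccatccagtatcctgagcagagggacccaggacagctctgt
Bcl10: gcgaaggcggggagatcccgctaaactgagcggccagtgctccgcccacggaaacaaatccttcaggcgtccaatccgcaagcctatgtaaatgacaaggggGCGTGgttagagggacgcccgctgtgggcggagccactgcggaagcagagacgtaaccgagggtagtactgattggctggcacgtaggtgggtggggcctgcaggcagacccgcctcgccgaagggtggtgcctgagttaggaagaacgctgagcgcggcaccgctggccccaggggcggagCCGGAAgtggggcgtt
Cd22: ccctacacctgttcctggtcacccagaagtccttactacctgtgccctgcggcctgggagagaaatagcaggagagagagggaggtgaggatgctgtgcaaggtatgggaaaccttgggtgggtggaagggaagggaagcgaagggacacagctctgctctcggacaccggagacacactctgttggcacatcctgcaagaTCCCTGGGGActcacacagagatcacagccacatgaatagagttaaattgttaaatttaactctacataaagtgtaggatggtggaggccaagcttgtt
Blnk: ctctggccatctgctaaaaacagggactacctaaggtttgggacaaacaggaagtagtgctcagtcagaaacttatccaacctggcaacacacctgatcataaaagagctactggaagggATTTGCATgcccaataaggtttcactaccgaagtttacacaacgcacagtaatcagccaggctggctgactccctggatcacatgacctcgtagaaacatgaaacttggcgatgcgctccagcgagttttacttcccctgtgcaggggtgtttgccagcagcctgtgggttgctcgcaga

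A total of 4 motifs were searched on both strands: the core GCGTG read by the aryl hydrocarbon receptor, the octamer ATGCAAAT of the B cell Oct factors, the palindrome of EBF1 and CCGGAA of ETS factors. GCGTG stood in 32.4% of 32851 RefSeq windows of the same length, and in those of 6 members, Cd79a, Syk, Grb2, Pik3ap1, Ralgps2 and Bcl10. ATGCAAAT stood in 1.74% of all windows and in those of Blnk, as ATTTGCAT on the printed strand, and Prkcb. The EBF1 letters stood in 0.904% of windows and, among members, in that of Cd22, 49 bases before the start. CCGGAA stood in 14.9% of windows and in those of 5 members, Bank1, Dok3, Sos1, Rasgrp3 and Bcl10. The windows of Ptpn6, Niban3 and Pik3cd held none of the 4 motifs, which says only that these letters are not in these windows.

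Values are log2(signal + 16) after quantile normalization across the arrays, a scale that understates changes of dim genes. Changes are differences of group means on that scale with their standard error (SE) from limma, and a change was called at an adjusted p under 0.05 over all 11969 genes. Median signals of the deposited arrays lay between 45.2 and 99.2, the highest in untreated replicate 4 and DMSO 12 h replicate 4, while 3′ over 5′ signal of the control gene Tfrc was highest in untreated replicate 3 and DMSO 48 h replicate 2, at 3.04 and 2.85 log2 units against a median of 1.18. Results that were lost without these 4 arrays are given where they arise. Cyp1a1, the standard target of the aryl hydrocarbon receptor, was higher with TCDD by 4.50 to 6.01 log2 units (SE 0.19) at the 5 times. Of 8 B cell markers, 7 had a probe set and all 7 passed the filter, Pax5 only dimly at group means of 5.99 to 6.79 log2 units. In these bulk cultures, fewer cells of a type and less RNA per cell cannot be told apart.

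The first comparison asked how the set stood in LPS-activated vehicle cultures relative to untreated cells. Most members were lower: 19, 20, 20, 22 and 20 of 34 members fell at 8, 12, 24, 36 and 48 h, and 2, 2, 1, 3 and 4 rose. Over all genes tested, 13.4%, 13.8%, 10.4%, 15.9% and 20.5% were called lower and 11.2%, 11%, 9.38%, 15.4% and 23.4% higher at those times. The median change of the members was -0.54, -0.58, -0.39, -0.43 and -0.47 log2 units, against -0.02, -0.01, -0.01, 0.01 and 0.02 over all genes. The 5 comparisons share the untreated arrays, and the effects of LPS, vehicle and culture time cannot be told apart in them. Called lower at every time were 13 members, Ms4a1, Cd24a, Cd22, Fcrla, Blk, Syk, Btk, Bank1, Plcg2, Bcl10, Nfatc1, Niban3 and Aff3, a pattern found in 3.63% of all genes. On the mean of all probe sets of a gene, calls of 8 members were lost at 1 or more of these times: Syk, Prkcb, Ptprc, Grb2, Sla, Ralgps2, Pik3cd and Bcl10.

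**Figure D1:**
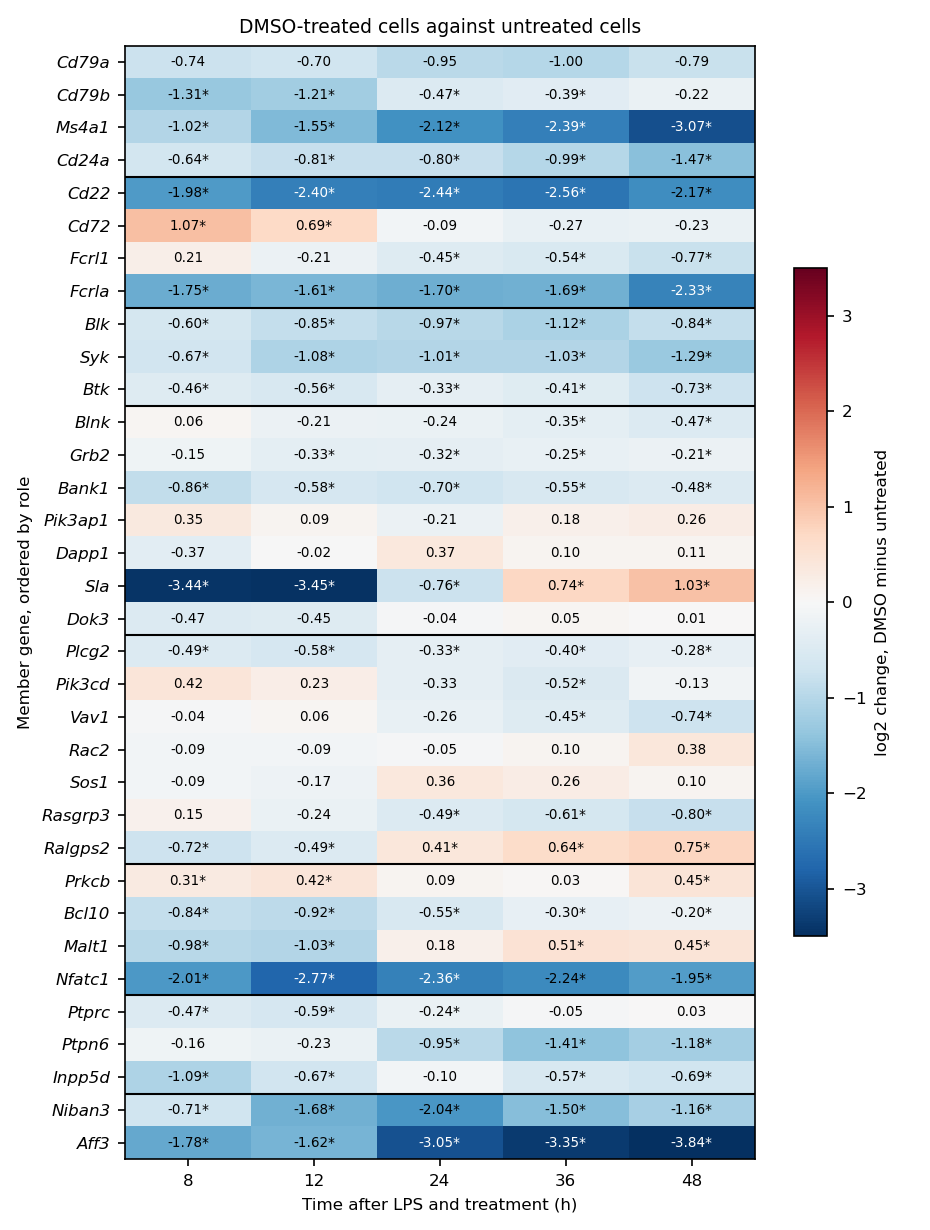
Heat map of the log2 change, DMSO minus untreated, of the 34 tested members (rows, ordered by role, black lines between roles) at 8, 12, 24, 36 and 48 h (columns), with the value in each cell and * for an adjusted p under 0.05. Blue cells, lower with DMSO, fill most rows, down to -3.84 for Aff3 at 48 h, while Sla, Ralgps2 and Malt1 are lower at 8 h and higher at 48 h.

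Among the signalling chains, Cd79a was lower at each time on average, but its arrays spread widely by day. Cd79a read 9.64, 10.79, 10.99 and 10.85 log2 units in DMSO 8 h replicates 1 to 4, against 10.43, 11.46, 11.59 and 11.75 in untreated replicates 1 to 4. The groups overlapped, and replicate 1 was the lowest array in both. The change of -0.74 ± 0.41 (SE, n = 4 each) was not called, at an adjusted p of 0.206 in limma, whereas with the day as a block the SE was 0.09 and the adjusted p 5.60e-08. With that block Cd79a was also called lower at the other 4 times, by -0.70, -0.95, -0.999 and -0.79 log2 units at 12, 24, 36 and 48 h.

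Cd79b, the partner chain, fell early and then returned most of the way. It read 11.61, 11.52, 11.62 and 11.84 log2 units in DMSO 8 h cultures, against 12.82, 12.88, 13.03 and 13.11 in untreated cells. Every DMSO 8 h array lay below every untreated array. The change was -1.31 ± 0.09 (SE) at 8 h, -1.21 at 12 h, -0.47 at 24 h, -0.39 at 36 h and -0.22 at 48 h. The last was not called, at an adjusted p of 0.0501 in limma, and was called with the day as a block, at 0.00617. DMSO 48 h cultures stood 1.09 ± 0.09 log2 units above DMSO 8 h cultures (adjusted p = 5.09e-12, limma).

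Ms4a1, which encodes the surface protein CD20, fell further at each later time. It read 10.46, 10.15, 10.42 and 10.18 log2 units in DMSO 48 h cultures, against 13.38, 13.39, 13.44 and 13.26 in untreated cells. The groups lay far apart, by -3.07 ± 0.11 log2 units (SE; adjusted p = 3.27e-21, limma), after -1.02, -1.55, -2.12 and -2.39 at 8, 12, 24 and 36 h. A second, dimmer Ms4a1 probe set fell by 3.48 on the log2 scale at 48 h. Cd24a, a surface glycoprotein of developing and mature B cells, was lower by -0.64 log2 units at 8 h and -1.47 at 48 h.

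Cd22, the inhibitory receptor that binds sialic acid, fell early and stayed low. Its arrays read 7.90, 7.99, 8.78 and 8.55 log2 units in DMSO 8 h cultures, against 9.97, 10.16, 10.26 and 10.73 in untreated cells. At 48 h DMSO cultures read 8.06, 7.98, 7.98 and 8.42 log2 units. All DMSO arrays at both times lay below all untreated arrays. The change was -1.98 ± 0.20 at 8 h (SE; adjusted p = 5.56e-10, limma) and -2.17 ± 0.20 at 48 h (2.37e-11), and the second probe set fell by 2.02 and 2.43 on the log2 scale.

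The other receptors of this group went separate ways. Fcrla, an intracellular Fc receptor-like protein of B cells, read 6.13, 6.07, 5.56 and 5.84 log2 units in DMSO 48 h cultures, against 8.80, 8.19, 8.22 and 7.72 in untreated cells. Its groups did not overlap, at -2.33 ± 0.17 (SE; adjusted p = 1.75e-13, limma), and its probe set may also bind related transcripts. All 4 of its DMSO 48 h arrays lay below the filter at 6.21, where the scale understates a change, so the size of this fall is a lower limit. Cd72, a C-type lectin with an inhibitory motif, read 10.82, 10.84, 11.35 and 11.25 log2 units in DMSO 8 h cultures, against 9.92, 10.06, 10.07 and 9.95 in untreated cells. It rose without overlap, by 1.07 ± 0.14 (adjusted p = 3.71e-07) at 8 h and 0.69 at 12 h, and was within 0.27 log2 units of the untreated level, not called, at 24, 36 and 48 h. Under the day block its -0.27 at 36 h was called (adjusted p = 0.0450). Fcrl1, an activating Fc receptor-like protein of B cells, was lower by -0.45, -0.54 and -0.77 log2 units at 24, 36 and 48 h. Without replicate 1 the 24 h change was -0.35 and not called.

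All 3 tyrosine kinases with a probe set were lower at every time. Syk, the kinase that docks on the phosphorylated chains, read 11.34, 11.60, 11.56 and 11.49 log2 units in DMSO 8 h cultures, against 12.03, 12.17, 12.30 and 12.17 in untreated cells. At 48 h DMSO cultures read 10.62, 11.46, 10.60 and 10.85 log2 units. Both times lay wholly below the untreated arrays, by -0.67 ± 0.13 (SE; adjusted p = 0.000156, limma) and -1.29 ± 0.13 (3.91e-10). A second Syk probe set was called lower at all 5 times, by -0.41 to -0.65 log2 units, another was called at none, at -0.07 to -0.57, and the last stayed below the filter. On the mean of the Syk probe sets the change was -0.19, -0.23, -0.40 and -0.26 at 8, 12, 24 and 36 h and was not called (adjusted p = 0.407, 0.312, 0.0588 and 0.206, limma), while 48 h was still called.

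Btk, the Tec family kinase that activates phospholipase C gamma, was also lower. It read 10.33, 10.34, 10.62 and 10.44 log2 units in DMSO 8 h cultures, against 10.69, 10.90, 10.79 and 11.18 in untreated cells. At 48 h its DMSO arrays read 10.05, 10.18, 10.28 and 10.14 log2 units. Neither time overlapped the untreated arrays, and the changes were -0.46 ± 0.09 (SE; adjusted p = 8.53e-05, limma) and -0.73 ± 0.09 (8.48e-09). Its smaller change of -0.33 at 24 h was lost without replicate 2 (-0.29), without replicate 4 (-0.24) and without the 4 arrays that stood apart (-0.23). Blk, a Src family kinase of B cells, was lower by -0.60 to -1.12 log2 units. Its call at 8 h was lost without replicate 3 (-0.60), without replicate 4 (-0.44) and without those 4 arrays (-0.33).

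Of the 7 adaptors and scaffolds, 2 were lower at 8 h and, at 48 h, 3 were lower and 1 higher. Blnk, the adaptor that joins SYK to BTK and phospholipase C gamma, read 13.97, 14.01, 14.08 and 14.18 log2 units in DMSO 8 h cultures, against 14.01, 14.19, 13.92 and 13.89 in untreated cells. These overlapped, at 0.06 ± 0.09 (SE; adjusted p = 0.711, limma). At 48 h the DMSO arrays read 13.58, 13.52, 13.37 and 13.67 log2 units, all below the untreated arrays, at -0.47 ± 0.09 (adjusted p = 5.11e-05).

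Sla, a Src-like adaptor that lowers antigen receptor signalling, had the deepest early fall of the set. It read 7.68, 7.14, 7.27 and 7.09 log2 units in DMSO 8 h cultures, against 11.06, 10.63, 10.21 and 11.06 in untreated cells. By 48 h it read 11.67, 11.67, 11.79 and 11.96 log2 units in DMSO cultures. The arrays lay wholly below the untreated ones at 8 h and wholly above them at 48 h, by -3.44 ± 0.20 (SE; adjusted p = 6.50e-16, limma) and 1.03 ± 0.20 (4.53e-05). Its other 3 probe sets were called lower at 8 h and higher at 48 h too. At the times between, its rise of 0.74 at 36 h was lost without replicate 3 (0.52), and its fall of -0.76 at 24 h without replicate 2 (-0.71) or replicate 4 (-0.64).

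The remaining adaptors moved less. Bank1, a scaffold that links the receptor to calcium release, was lower by -0.48 to -0.86 log2 units at the 5 times. Grb2, the adaptor that couples receptors to SOS, was called lower at 12, 24, 36 and 48 h by -0.33, -0.32, -0.25 and -0.21 log2 units. Each of its 4 calls was lost without replicate 2, at -0.30, -0.29, -0.25 and -0.16. Those at 24, 36 and 48 h were also lost without replicate 4, at -0.26, -0.20 and -0.10, and that at 36 h without replicate 1, at -0.24. Pik3ap1, which recruits phosphoinositide 3-kinase, Dapp1, a phosphoinositide-binding adaptor, and Dok3, an inhibitory adaptor, were not called at any time. Blocking on the day, Pik3ap1 was called at 8 h (0.35, adjusted p = 0.0229), Dapp1 at 8 h (-0.37, 0.0157) and 24 h (0.37, 0.0188), and Dok3 at 8 h (-0.47, 0.0472). A second Pik3ap1 probe set was higher by 1.07 log2 units at 8 h and was called.

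Lipid enzymes, exchange factors and GTPases were mixed. Plcg2, the phospholipase C of B cells, was lower by -0.28 to -0.58 log2 units at the 5 times. Without replicate 3 it was not called at 24 h (-0.24) or 48 h (-0.18). Vav1 and Rasgrp3, exchange factors for RAC and RAS, were lower late, at -0.74 and -0.80 log2 units at 48 h. Pik3cd, the leukocyte catalytic subunit of phosphoinositide 3-kinase, was called at 36 h alone (-0.52), and not without replicates 2, 3 or 4 (-0.55, -0.44 and -0.43) or without the 4 arrays that stood apart (-0.22). With the day as a block it was also called at 8 h, higher by 0.42 (adjusted p = 0.00805), and at 24 h, lower by -0.33 (0.0471). Its s_at probe set was called higher at 8 h, by 0.93 log2 units. Rac2, the haematopoietic RAC GTPase, and Sos1, an exchange factor for RAS, were not called at any time. Under the day block Rac2 was called at 48 h (0.38, adjusted p = 0.000312) and Sos1 at 24 h (0.36, 0.0132).

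Ralgps2, an exchange factor for RAL, was lower early and higher late. It read 9.98, 9.91, 9.86 and 10.14 log2 units in DMSO 48 h cultures, against 9.42, 9.30, 9.20 and 8.97 in untreated cells. These did not overlap, at 0.75 ± 0.12 (SE; adjusted p = 2.75e-06, limma), while at 8 h the change was -0.72 ± 0.12. Its other 2 probe sets were also called lower at 8 h, but their changes of 0.28 and 0.13 at 48 h were not called. Ralgps2 was the 1 member called higher at 24 h, at 0.41, a call lost without replicate 4 (0.27), without the 4 arrays that stood apart (0.27) and on the mean of its probe sets (0.15).

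Downstream, Nfatc1, a calcium-regulated transcription factor, fell at every time. It read 10.38, 10.80, 11.49 and 11.49 log2 units in DMSO 8 h cultures, against 12.74, 13.05, 13.26 and 13.15 in untreated cells. The groups did not overlap, at -2.01 ± 0.21 (SE; adjusted p = 1.66e-09, limma), and the fall was -2.77 at 12 h and -1.95 at 48 h. All 4 of its other probe sets were called lower at 8 and 48 h.

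Prkcb, the protein kinase C beta on the route to NF-κB, was higher at 8, 12 and 48 h. It read 12.54, 12.41, 12.37 and 12.38 log2 units in DMSO 8 h cultures and 12.71, 12.69, 12.46 and 12.40 in DMSO 48 h cultures, against 12.32, 12.02, 12.15 and 11.98 in untreated cells. Both times lay above the untreated arrays, at 0.31 ± 0.10 (SE; adjusted p = 0.0207, limma) and 0.45 ± 0.10 (0.000309). The 8 h call was lost without replicate 2, 3 or 4 (0.28, 0.33 and 0.28) and without the 4 arrays that stood apart (0.26), as was that at 12 h without those arrays (0.32). On the mean of the Prkcb probe sets none of the 3 calls was kept, at 0.22, 0.38 and 0.34 (adjusted p = 0.481, 0.194 and 0.183, limma). Its second probe set was called higher at 48 h alone, by 0.59 log2 units, and the last stayed below the filter.

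Bcl10 and Malt1 encode proteins that bind each other and act upstream of NF-κB. Bcl10 was lower by -0.84, -0.92, -0.55, -0.30 and -0.20 log2 units at the 5 times. The last was lost without replicate 2 (-0.15) or replicate 4 (-0.19). Malt1 was lower by -0.98 and -1.03 log2 units at 8 and 12 h and higher by 0.51 and 0.45 at 36 and 48 h. Those late calls were lost without replicate 4 (0.39 and 0.35) and without the 4 arrays that stood apart (0.38 and 0.34). Its other 2 probe sets were called higher at 48 h, by 1.21 and 1.00 log2 units, and were not called at 8 h.

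Among phosphatases, Ptpn6 was called lower from 24 h on, by -0.95, -1.41 and -1.18 log2 units, after -0.16 and -0.23, not called, at 8 and 12 h. Ptprc, the CD45 phosphatase that activates Src family kinases, was lower early, at -0.47, -0.59 and -0.24 log2 units at 8, 12 and 24 h. The 24 h call was lost without replicate 1, 2 or 3 (-0.20, -0.19 and -0.27). Inpp5d, the lipid phosphatase SHIP-1, was lower by -1.09, -0.67, -0.57 and -0.69 log2 units at 8, 12, 36 and 48 h. Its second probe set was not called at 8 or 48 h, and its 36 h call was lost without replicate 2 (-0.53), replicate 4 (-0.54) or the 4 arrays that stood apart (-0.49).

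Aff3, a nuclear protein of the AF4 family found in lymphoid cells, had the largest change of the set at 48 h. Its DMSO 48 h arrays read 6.41, 6.28, 6.73 and 6.82 log2 units, against 10.48, 10.23, 10.50 and 10.41 in untreated cells. The groups were far apart, at -3.84 ± 0.16 (SE; adjusted p = 1.39e-20, limma). A second Aff3 probe set, with a mean of 6.82 log2 units, did not show it, at 0.20 ± 0.36 and not called. Niban3, a protein named for its B cell expression as Bcnp1, was lower by -0.71 to -2.04 log2 units.

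Within vehicle cultures, DMSO 48 h was set against DMSO 8 h, without the untreated arrays. Of the 34 members, 10 were higher and 14 lower, where 26.8% of all genes were called higher and 21.2% lower. The number that rose was thus near the share over all genes. The largest rises were Sla at 4.48 ± 0.20 (SE), Ralgps2 at 1.47 ± 0.12 and Malt1 at 1.43 ± 0.14 log2 units. The largest falls were Aff3 at -2.07 ± 0.16, Ms4a1 at -2.05 ± 0.11 and Cd72 at -1.29 ± 0.14. Dapp1 (0.47) and Dok3 (0.48) were also called, Dapp1 not without replicate 3 (0.36) and Dok3 not without replicate 1, 2 or 3 (0.39, 0.46 and 0.46). Plcg2 was higher by 0.21, lost without replicate 1 or 2 (0.17 and 0.14) and without the 4 arrays that stood apart (0.18). Averaging all probe sets of a gene ended the calls of Fcrla (-0.24), Syk (-0.23) and Ptprc (0.06).

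The second question was how TCDD changed the set at each time relative to DMSO. Averaged over the 5 times, 12 of 34 members rose and 6 fell, where 11% of all genes were called higher and 9.84% lower. The median change of the members was 0.08 log2 units, against -0.01 over all genes. At 8, 12, 24, 36 and 48 h, 5, 7, 8, 6 and 8 members rose and 2, 4, 3, 2 and 2 fell. Of all genes, 2.73%, 6.07%, 4.8%, 3.5% and 4.3% were called higher and 1.41%, 3.15%, 2.79%, 2.41% and 4.55% lower. With the day as a block the 36 h count was 9 higher and 4 lower, where 6.05% and 4.87% of all genes were called. Single days moved the total of called members, which stood against 4.14%, 7.59% and 8.85% of all genes at 8, 24 and 48 h. The 7 members at 8 h were 4 without replicate 2, the 11 at 24 h were 7, 6 and 6 without replicates 2, 3 and 4, and the 10 at 48 h were 5 and 6 without replicates 2 and 3. The DMSO arrays used here are also those set against untreated cells above, so the 2 sets of changes share arrays.

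**Figure D2:**
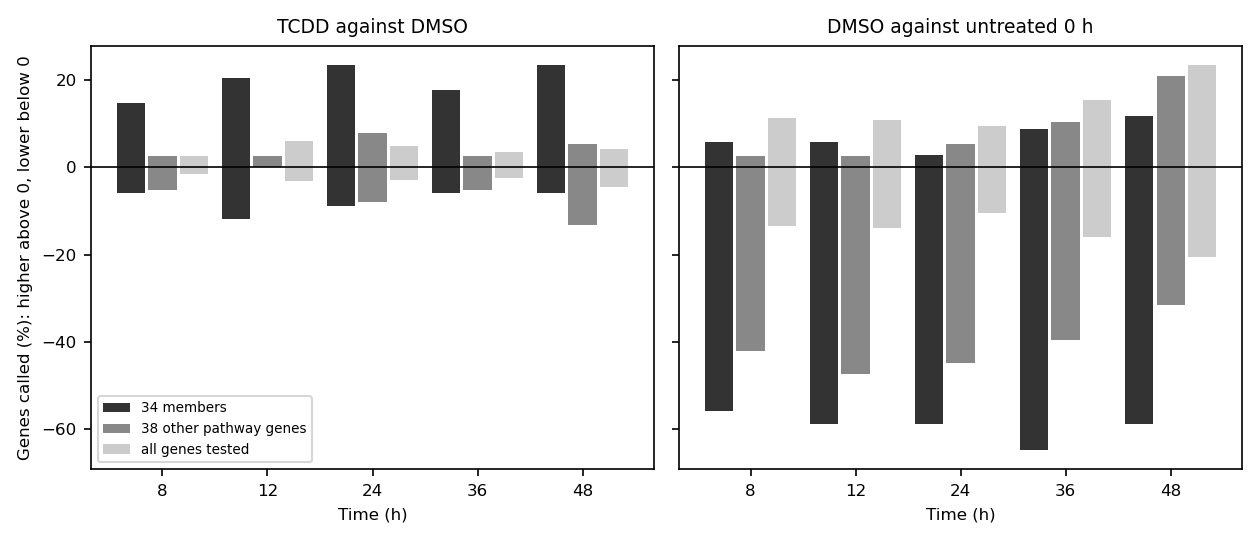
Percent of the 34 members, of 38 other pathway genes and of all 11969 genes tested (dark, middle and light grey) that were called higher or lower in each comparison. In DMSO against untreated cells most called members are lower. At 48 h 20 are lower and 4 higher, where 20.5% and 23.4% of all genes are. With TCDD more members are called higher than lower at each time. This also holds for all genes at 8, 12, 24 and 36 h, but not at 48 h.

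Called at all 5 times were 4 members: Blk, Pik3cd and Ptpn6 were higher, as were 0.802% of all genes, and Niban3 was lower, as were 0.134%. A further 13 members were called at 1 to 4 times and 17 at none, and the shares of all genes with these patterns are not given here. Averaging all probe sets of a gene ended the calls of Pik3cd at 8 h (0.39) and 36 h (0.39), Fcrl1 at 36 h (0.64), Cd22 at 24 h (-0.41) and Aff3 at 12 h (-0.36) and 48 h (0.41), and the averaged calls of Ms4a1 (-0.13), Bcl10 (0.09) and Prkcb (0.12). TCDD and DMSO cultures of the same day and time formed 20 pairs, from 4 days at 5 times, so these are not 20 independent replicates. TCDD was higher in all 20 for Blk, Plcg2, Pik3cd, Nfatc1 and Ptpn6, and lower in all 20 for Cd22 and Niban3. The share of all genes with such a pattern is not given here.

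**Figure D3:**
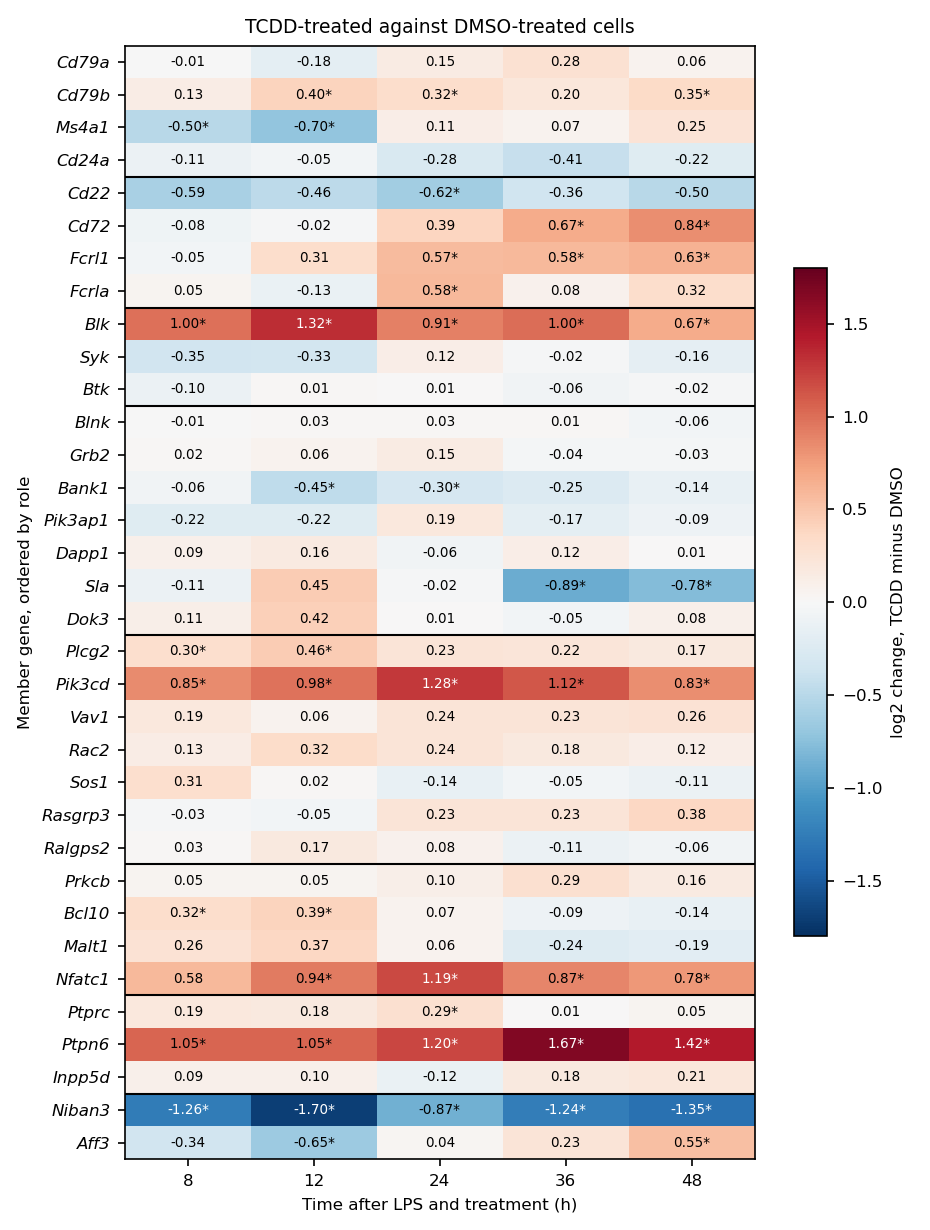
Heat map of the log2 change, TCDD minus DMSO, of the 34 tested members (rows, ordered by role) at 8, 12, 24, 36 and 48 h (columns), with the value in each cell and * for an adjusted p under 0.05. Ptpn6, Pik3cd and Blk are red, higher with TCDD, at every time, and Niban3 is blue at every time with its lowest value of -1.70 at 12 h.

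Ptpn6, the SHP-1 phosphatase, had the largest rise. It read 12.73, 12.94, 13.04 and 12.74 log2 units in TCDD 36 h cultures, against 11.02, 11.27, 11.38 and 11.10 in DMSO 36 h cultures. Every TCDD array lay above every DMSO array, at 1.67 ± 0.14 (SE, n = 4 each; adjusted p = 2.35e-10, limma). The change was 1.05, 1.05, 1.20 and 1.42 log2 units at 8, 12, 24 and 48 h, and no call was lost when a day was left out. Its second probe set was called at all 5 times, at 0.51 to 1.17 log2 units. Ptprc, the CD45 phosphatase, was called at 24 h (0.29), but not without replicate 2, 3 or 4 (0.24, 0.33 and 0.29). Its change at 24 h was -0.072 when all its probe sets were averaged. With the day as a block Ptprc was also called at 8 and 12 h (0.19 and 0.18; adjusted p = 0.0192 and 0.0174). Inpp5d averaged 0.09 ± 0.08 over the 5 times and was not called.

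Pik3cd, the catalytic subunit p110 delta, rose at every time. It read 11.39, 11.80, 11.95 and 12.01 log2 units in TCDD 24 h cultures, against 10.35, 10.46, 10.61 and 10.64 in DMSO 24 h cultures. The groups were apart, at 1.28 ± 0.19 (SE; adjusted p = 4.56e-06, limma), with 0.85, 0.98, 1.12 and 0.83 at the other times. The 8 h call was lost without replicate 2 (0.83). Of its 4 other tested probe sets, 2 were called higher on average (1.10 and 0.81 log2 units) and 2 were not called (0.22 and -0.09).

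Blk rose among the kinases. Its arrays read 10.56, 11.44, 10.81 and 10.85 log2 units in TCDD 12 h cultures, against 9.19, 9.67, 9.40 and 10.10 in DMSO 12 h cultures. The groups did not overlap, at 1.32 ± 0.19 (SE; adjusted p = 3.79e-06, limma), with 1.00, 0.91, 1.00 and 0.67 at the other times. The 48 h call was lost without replicate 1, 2 or 3 (0.56, 0.57 and 0.80). Syk read 10.91, 10.90, 10.53 and 10.54 log2 units in TCDD 48 h cultures, against 10.62, 11.46, 10.60 and 10.85 in DMSO 48 h cultures. These overlapped, at -0.16, and its averaged change of -0.15 ± 0.06 was not called (adjusted p = 0.0709, limma) but was with the day as a block (0.0251), as was its -0.33 at 12 h (0.0425).

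Btk read 10.05, 10.03, 10.31 and 10.18 log2 units in TCDD 48 h cultures, against 10.05, 10.18, 10.28 and 10.14 in DMSO 48 h cultures. The arrays overlapped, and the averaged change was -0.03 ± 0.04 (adjusted p = 0.642, limma). Blnk read 13.47, 13.67, 13.27 and 13.50 log2 units in TCDD 48 h cultures, against 13.58, 13.52, 13.37 and 13.67 in DMSO 48 h cultures. They overlapped too, with an averaged change of 0.00 ± 0.04 (0.997).

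**Figure D4:**
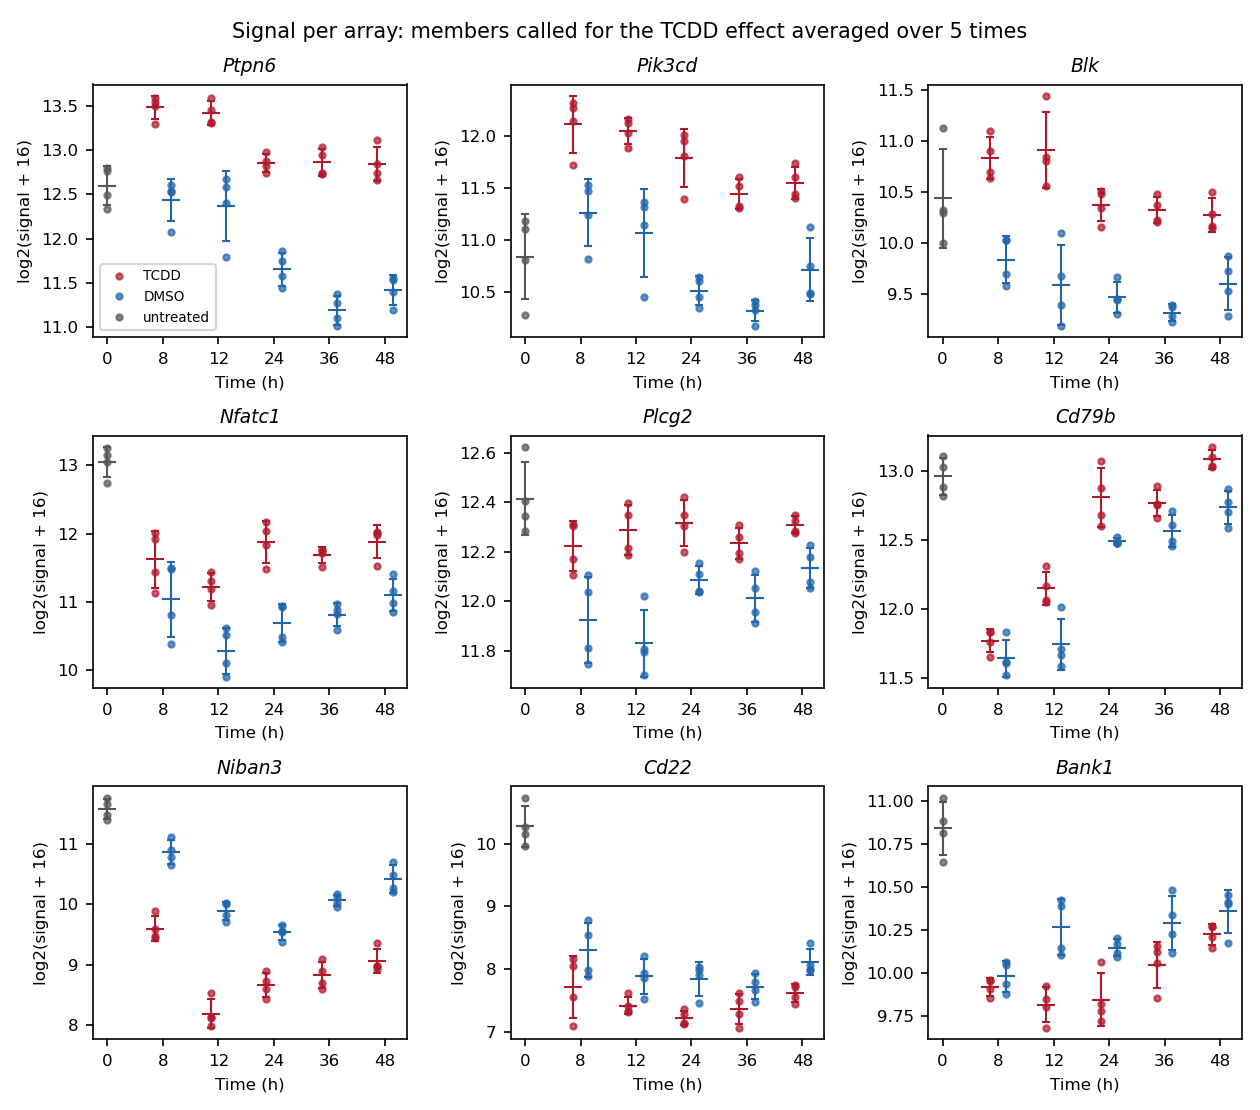
Signal per array, as log2(signal + 16), of 9 members called for the averaged TCDD effect, against time in h (evenly spaced). Points are arrays (TCDD red, DMSO blue, untreated grey), with the mean and SD of 4 arrays. Ptpn6 at 36 h lies at 12.73 to 13.04 with TCDD, against 11.02 to 11.38 with DMSO, and Niban3 lies lower with TCDD at each time.

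Nfatc1 was higher with TCDD at every time and was called at 12, 24, 36 and 48 h. It read 11.48, 11.83, 12.04 and 12.18 log2 units in TCDD 24 h cultures, against 10.41, 10.49, 10.94 and 10.92 in DMSO 24 h cultures. The groups were apart, at 1.19 ± 0.21 (SE; adjusted p = 9.58e-05, limma), with 0.94, 0.87 and 0.78 at 12, 36 and 48 h. Its 0.58 at 8 h was called only with the day as a block (adjusted p = 0.00586). The calls at 12 h, 36 h and 48 h were lost without replicate 2 (0.85, 0.88 and 0.84), those at 36 and 48 h without replicate 3 (0.85 and 0.66), and that at 48 h without replicate 4 (0.71). All 4 other probe sets were higher on average, by 0.34 to 0.84 log2 units, and 3 of them were called. Prkcb averaged 0.13 ± 0.04 and was higher in 19 of 20 pairs. The call of Prkcb was lost without replicate 2, 3 or 4 (0.14, 0.12 and 0.12), and at 36 h it was called only with the day as a block (0.29, adjusted p = 0.0101). Malt1 averaged 0.05 ± 0.06 and was not called.

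Plcg2 and Cd79b rose by less. Plcg2 was higher by 0.30 and 0.46 log2 units at 8 and 12 h, and by 0.23 and 0.22 at 24 and 36 h, called only with the day as a block (adjusted p = 0.0149 and 0.0245). The 8 h call was lost without replicate 1, 2 or 3 (0.26, 0.30 and 0.31). Cd79b read 13.03, 13.04, 13.17 and 13.10 log2 units in TCDD 48 h cultures, against 12.78, 12.59, 12.87 and 12.71 in DMSO 48 h cultures. The arrays did not overlap, at 0.35 ± 0.09 (SE; adjusted p = 0.0128, limma), with called rises of 0.40 at 12 h and 0.32 at 24 h. The 48 h call was lost without replicate 1, 2 or 3 (0.38, 0.32 and 0.36) and the 24 h call without 1, 3 or 4 (0.37, 0.29 and 0.23).

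Cd79a was not called with TCDD at any time. It read 9.66, 10.61, 11.02 and 11.03 log2 units in TCDD 48 h cultures, against 9.62, 10.40, 11.15 and 10.91 in DMSO 48 h cultures. The groups overlapped, and the averaged change was 0.06 ± 0.18 (SE; adjusted p = 0.873, limma). With the day as a block it was called at 36 h (0.28, adjusted p = 0.0392).

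Vav1 averaged 0.20 ± 0.05 (SE; adjusted p = 0.00136, limma), and was called at no single time. The call was lost on the mean of its 2 probe sets (0.10, adjusted p = 0.101), the second of which averaged -0.00246. Rac2 averaged 0.20 ± 0.09 and Rasgrp3 0.15 ± 0.06, called only with the day as a block (adjusted p = 0.000115 and 0.0252), as were Rac2 at 12 h (0.32, 0.00731) and Rasgrp3 at 48 h (0.38, 0.0218). Vav1 and Rac2 were each higher in 19 of 20 pairs. Sos1, Ralgps2, Grb2, Pik3ap1, Dapp1 and Dok3 were not called at any time or on average.

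Niban3 had the largest fall with TCDD. It read 8.12, 7.99, 8.14 and 8.53 log2 units in TCDD 12 h cultures, against 9.82, 9.71, 10.01 and 10.03 in DMSO 12 h cultures. The groups were far apart, at -1.70 ± 0.13 (SE; adjusted p = 1.11e-11, limma), with -1.26, -0.87, -1.24 and -1.35 at 8, 24, 36 and 48 h. No call was lost when a day was left out.

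Cd22 was lower in every pair by a smaller step. It read 7.28, 7.14, 7.35 and 7.11 log2 units in TCDD 24 h cultures, against 7.90, 7.45, 7.98 and 8.04 in DMSO 24 h cultures. At 48 h it read 7.71, 7.44, 7.75 and 7.55 with TCDD, against 8.06, 7.98, 7.98 and 8.42 with DMSO. The groups did not overlap at either time. Its averaged change was -0.51 ± 0.09 (SE; adjusted p = 2.76e-05, limma), and the single time called was 24 h, at -0.62 ± 0.20 (0.0437). That call was lost without any 1 of the 4 days (-0.62, -0.73, -0.62 and -0.52 without replicates 1 to 4). With the day as a block, -0.59 at 8 h and -0.50 at 48 h were called too (adjusted p = 0.0210 and 0.0382). Its dimmer second probe set averaged -0.37 and was not called.

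Bank1 and Sla fell among the adaptors. Bank1 read 9.85, 9.92, 9.80 and 9.68 log2 units in TCDD 12 h cultures, against 10.39, 10.10, 10.14 and 10.42 in DMSO 12 h cultures. These did not overlap, at -0.45 ± 0.09 (SE; adjusted p = 0.000626, limma), a call lost without replicate 4 (-0.36). At 24 h Bank1 was lower by -0.30, lost without replicate 2, 3 or 4 (-0.31, -0.27 and -0.24), and at 36 h by -0.25, called only with the day as a block (adjusted p = 0.0465). Sla read 10.57, 10.31, 10.83 and 10.62 log2 units in TCDD 36 h cultures, against 11.38, 11.50, 11.59 and 11.44 in DMSO 36 h cultures. The groups were apart, at -0.89 ± 0.20 (adjusted p = 0.00310, limma), and at 48 h the change was -0.78. The calls were lost without replicate 2 (-0.79 and -0.76), and that at 48 h also without replicate 4 (-0.72). The averaged change of Sla, -0.27 ± 0.09, was lost without replicate 2, 3 or 4 (-0.27, -0.25 and -0.27).

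Cd24a averaged -0.21 ± 0.07 (SE; adjusted p = 0.0219, limma) and was lower in 18 of 20 pairs, a call lost without replicate 2, 3 or 4 (-0.24, -0.20 and -0.21). It was called with the day as a block at 24, 36 and 48 h (-0.28, -0.41 and -0.22; adjusted p = 0.00264, 2.88e-05 and 0.0167).

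The third question was whether the TCDD effect differed between times, tested directly by an F test on the 4 differences from the 8 h effect. It was called for 7 of 34 members, where 6.99% of all genes were called: Ms4a1, Bcl10, Aff3, Sla, Cd72, Fcrl1 and Niban3. Without replicate 2 the count was 4, and the share over all genes in that fit is not given here. Blocking on the day, Cd24a, Ptprc and Ptpn6 were called as well (adjusted p = 0.0304, 0.0323 and 0.0182). That made 10 of 34 members, while the calls over all 11969 genes went from 837 to 1921 with the block.

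Ms4a1 was lower with TCDD early and not late (adjusted p = 0.000141, limma). It read 10.98, 10.95, 11.17 and 11.35 log2 units in TCDD 12 h cultures, against 11.68, 11.66, 11.79 and 12.14 in DMSO 12 h cultures. At 48 h it read 10.46, 10.35, 10.77 and 10.63 with TCDD, against 10.46, 10.15, 10.42 and 10.18 with DMSO. The groups were apart at 12 h, at -0.70 ± 0.11 (SE), and overlapped at 48 h, at 0.25 ± 0.11, which was called only with the day as a block (adjusted p = 0.0484). The -0.50 at 8 h was lost without replicate 2 or 3 (-0.45 in both). The averaged change of Ms4a1, -0.15 ± 0.05, was lost without replicate 1, 2 or 3 (-0.17, -0.15 and -0.14).

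Bcl10 was higher early (interaction adjusted p = 0.000141, limma). It read 11.32, 11.22, 11.32 and 11.35 log2 units in TCDD 12 h cultures, against 10.89, 10.89, 10.94 and 10.91 in DMSO 12 h cultures. At 48 h it read 11.40, 11.49, 11.53 and 11.53 with TCDD, against 11.70, 11.51, 11.60 and 11.67 with DMSO. The groups were apart at 12 h, at 0.39 ± 0.07 (SE), and overlapped at 48 h, at -0.14 ± 0.07. The 0.32 at 8 h and the averaged change of 0.11 ± 0.03 were lost without replicate 4 (0.31 and 0.10).

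Aff3 was lower with TCDD at 12 h and higher at 48 h (interaction adjusted p = 0.00208, limma). It read 8.30, 8.11, 8.08 and 8.04 log2 units in TCDD 12 h cultures, against 8.67, 8.52, 8.82 and 9.13 in DMSO 12 h cultures. At 48 h it read 6.97, 7.21, 7.00 and 7.25 with TCDD, against 6.41, 6.28, 6.73 and 6.82 with DMSO. The groups were apart both times, at -0.65 ± 0.16 (SE) and 0.55 ± 0.16. The 12 h call was lost without replicate 3 (-0.62) or 4 (-0.51). The 48 h call was lost without replicate 1, 2 or 3 (0.55, 0.42 and 0.64) and without the 4 arrays that stood apart (0.45). Without replicate 3 the interaction was lost as well (adjusted p = 0.0573), as it was on the mean of its probe sets (0.235). The second Aff3 probe set was not called on average.

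Sla, described above, was lower with TCDD at 36 and 48 h, after -0.11, 0.45 and -0.02 at 8, 12 and 24 h (interaction adjusted p = 0.00372, limma; 0.128 and 0.0846 without replicates 2 and 4). Cd72 and Fcrl1 rose late. Cd72 read 10.61, 10.51, 10.94 and 10.42 log2 units in TCDD 48 h cultures, against 9.68, 9.72, 9.98 and 9.72 in DMSO 48 h cultures. The groups did not overlap, at 0.84 ± 0.14 (SE; adjusted p = 8.78e-05), after -0.08, -0.02, 0.39 and 0.67 at 8, 12, 24 and 36 h. The 36 h call was lost without replicate 1 (0.57), as was the interaction (adjusted p = 0.0688), and 24 h was called only with the day as a block (0.0118).

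Fcrl1 read 9.86, 9.81, 9.58 and 9.36 log2 units in TCDD 48 h cultures, against 9.09, 8.79, 9.31 and 8.91 in DMSO 48 h cultures. All TCDD arrays lay above all DMSO arrays, at 0.63 ± 0.12 (SE; adjusted p = 0.000259, limma), after -0.05, 0.31, 0.57 and 0.58 at 8, 12, 24 and 36 h. Its 12 h value was called only with the day as a block (adjusted p = 0.0498). The interaction of Fcrl1 was lost without replicate 1, 2 or 4 (adjusted p = 0.233, 0.160 and 0.108) and that of Niban3 without replicate 1, 2 or 3 (0.147, 0.266 and 0.443) or the 4 arrays that stood apart (0.0744). Fcrla was called at 24 h (0.58), lost without replicate 2, 3 or 4 (0.52, 0.53 and 0.53).

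**Figure D5:**
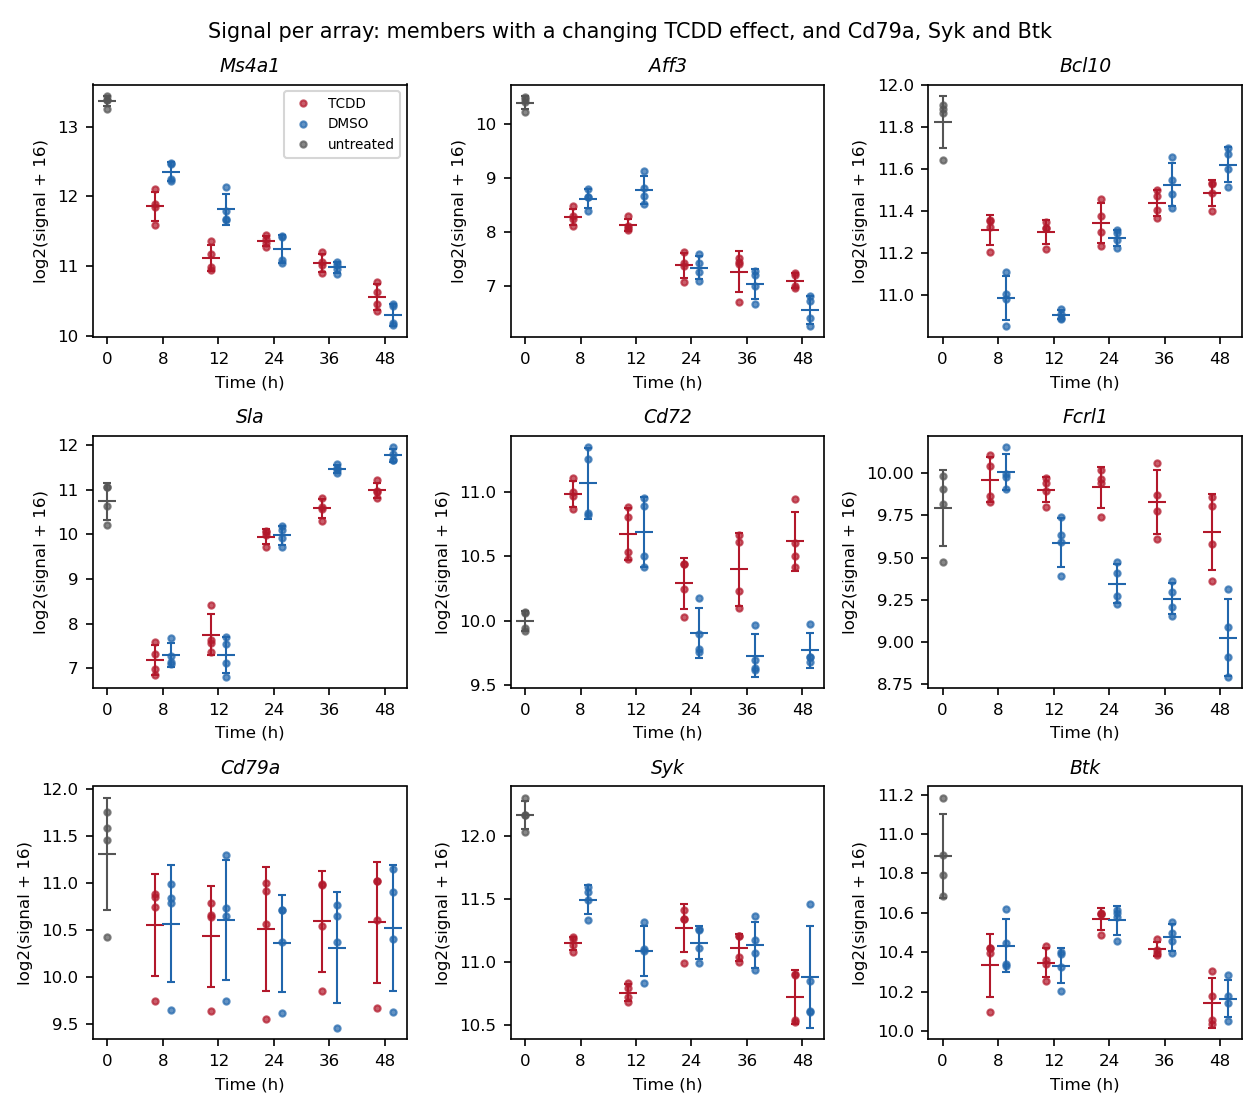
Signal per array, as log2(signal + 16), against time in h (evenly spaced), of 6 members whose TCDD effect differed between times and of Cd79a, Syk and Btk. Points are arrays (TCDD red, DMSO blue, untreated grey), with the mean and SD of 4 arrays. Cd72 and Fcrl1 separate late, Ms4a1 and Bcl10 early, and in Cd79a 1 array per group, replicate 1, lies far below the others.

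Markers of other cell types were measured beside these changes. Plasma cell markers had 5 of 6 above the filter, and Tnfrsf17 was below it. Their summed signal at 48 h was 18704 to 19740 in TCDD cultures, against 23664 to 24955 in DMSO cultures, and 13927 to 16777 in untreated cells. At 36 h the sum was also lower with TCDD without overlap, and at 8, 12 and 24 h the TCDD and DMSO sums overlapped. The brightest markers weigh most in this sum, here Xbp1 and Irf4, with highest group means of 13.88 and 13.10 log2 units. Macrophage and monocyte markers had 4 of 6 above the filter, and Lyz2 and Itgam were below it. Their sums were 2856 to 3228 with TCDD, against 1748 to 2009 with DMSO, at 8 h, and 3001 to 3376 against 1582 to 1748 at 12 h. They were 2498 to 2882 with TCDD, against 1240 to 1452 with DMSO, at 24 h, 2268 to 2508 against 1439 to 1678 at 36 h, and 2411 to 2829 against 2060 to 2630 at 48 h. The macrophage sums were thus higher with TCDD and did not overlap at 8, 12, 24 and 36 h, and overlapped at 48 h. These are sums of linear signal, so the brightest markers weigh most. Group means reached 10.64 log2 units for Csf1r, 10.67 for Cd68, 9.21 for Adgre1 and 6.62 for Cd14. Changes of single markers are not given here, so the sums do not show a rise of each marker. T cell markers had 6 of 8 above the filter, and Cd3d and Cd4 were below it. Their sums at 48 h were 1204 to 1573 with TCDD, against 1087 to 1567 with DMSO. The part of these markers in the results was not tested.

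A second list of 50 genes of the same pathway that are not members was counted beside them, and 38 were tested. In DMSO against untreated cells 16, 18, 17, 15 and 12 of the 38 fell at 8, 12, 24, 36 and 48 h, and 1, 1, 2, 4 and 8 rose, where 13.4%, 13.8%, 10.4%, 15.9% and 20.5% of all genes were called lower and 11.2%, 11%, 9.38%, 15.4% and 23.4% higher. At 48 h the largest rises were Pik3cg, another catalytic subunit of phosphoinositide 3-kinase, at 2.35 ± 0.17 (SE; adjusted p = 4.94e-14, limma) and Itpr3, a calcium release channel, at 1.75 ± 0.26. The largest falls were Siglecg, an inhibitory sialic acid receptor, at -1.60 ± 0.17 and Rasgrp2, an exchange factor for RAP, at -1.47 ± 0.28.

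With TCDD, 4 of these 38 rose and 6 fell on average, where 11% of all genes were called higher and 9.84% lower, so the number that rose was near the share over all genes. Cblb, a ubiquitin ligase that restrains antigen receptor signals, rose by 0.44 ± 0.07 (SE; adjusted p = 5.90e-06, limma), and Swap70, a RAC-binding protein of activated B cells, by 0.21 ± 0.04. Nfatc2, a relative of Nfatc1, fell by 0.45 ± 0.08 on the log2 scale and Pik3cg by 0.42 ± 0.07. Pik3cd and Pik3cg were thus called in opposite directions, at 1.01 ± 0.08 and -0.42 ± 0.07 with TCDD, as were Nfatc1 and Nfatc2, at 0.87 ± 0.09 and -0.45 ± 0.08.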

How the data were processed

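Expression was measured on 44 single-color Affymetrix mouse genome arrays. Each deposited intensity is 1 linear signal per probe set, and the submitters' processing notes name the software GCOS 1.0, whose settings are not known here. The 2% trimmed mean of each deposited array was 500.0, measured here. Signals were quantile-normalized on the linear scale and then transformed as log2(signal + 16). Probe sets were named through the platform annotation, each gene was represented by its probe set with the highest mean, and genes whose highest group mean passed the median of all values (6.21) were kept. Means of the 11 groups were fitted in limma 3.58.1 (R 4.3.3) to the 44 arrays together, with empirical Bayes moderation and two-sided tests, with Benjamini-Hochberg adjustment over 11969 genes. The test was checked on simulated data without a day effect. That check does not cover the days shared by these arrays. Figures used Python 3.11.15 and matplotlib 3.10.9.

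Groups follow the labels, and the number of arrays limits the precision. The series design states that a replicate number marks a shared day, and 18 of 20 same-time TCDD and DMSO pairs deviated together (r over 0.1). The 11 groups were fitted without the day, and with it as a block as an alternative. Other alternatives were the low-signal filter, the pseudocount, the normalization, the probe set rule, the arrays fitted and leaving out each day. Array values are given for Cd79a, Cd79b, Cd22, Syk, Btk and Blnk, for the 4 largest called averaged changes with TCDD in each direction, for the 3 largest called changes of DMSO at 8 and 48 h in each direction, and for the 4 smallest interaction p-values. Those of Cd72 and Fcrl1 with TCDD at 48 h were added after their values were seen. The members and lists were chosen with earlier results of these data known.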

Additional observations from a re-analysis of the deposited data

Results flagged for a closer look

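Each member was examined for 1 array far from the other 3 of its group, its gap, as a share of the group's range, exceeding Dixon's critical value. Chance flags about 1 in 20 such groups, and 24 of 374 were marked. All values are log2(signal + 16).

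Replicate 1 stood apart for several surface and signalling genes. Cd79a was low, at 9.74 in TCDD 8 h, 9.63 in TCDD 12 h and 9.64 in DMSO 8 h. Nfatc1 was low at 11.51 in TCDD 36 h and 11.52 in TCDD 48 h, Btk at 10.49 in TCDD 24 h, Rac2 at 12.30 in TCDD 8 h, Ptpn6 at 12.08 in DMSO 8 h and Inpp5d at 10.26 in untreated cells. Dapp1 was high at 9.99 in TCDD 12 h, Prkcb at 12.57 in TCDD 8 h, Ptprc at 13.05 in TCDD 36 h, Cd79b at 12.52 in DMSO 24 h and Fcrla at 6.79 in DMSO 36 h.

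In replicate 2, Aff3 was low at 6.71 in TCDD 36 h and Rasgrp3 at 11.29 in DMSO 24 h. In replicate 3, Cd72 was high at 9.98 in DMSO 48 h, while Dapp1 was low at 9.76 in DMSO 24 h, Ralgps2 at 9.61 in DMSO 36 h, and Rasgrp3 at 11.56 and Bcl10 at 11.64 in untreated cells. In replicate 4, Btk was low at 10.10 in TCDD 8 h, while Pik3ap1 was high at 9.88 in TCDD 12 h and Niban3 at 9.37 in TCDD 48 h.

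The TCDD effect differed between times, by the interaction test in limma, for 7 of 34 members, where 6.99% of all genes were called. Of the 7, only Ms4a1 and Bcl10 kept the call when each replicate was left out in turn. The adjusted p was 0.000141 for Ms4a1 and for Bcl10, 0.00208 for Aff3, 0.00372 for Sla, 0.00386 for Cd72, 0.0182 for Fcrl1 and 0.0448 for Niban3.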

How the results depend on the processing

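Across the comparisons 209 changes of single members were called. With the replicate number (day) as a replicate block, fixed or random, or with a pseudocount of 1, all 209 kept their direction and call, as did all 201 that passed a stricter filter. Of the 209, 43 were lost when the arrays compared were fitted alone, 29 when all probe sets of a gene were averaged, 11 without a filter, 7 on values as deposited, 3 with every probe set tested, 1 each with a pseudocount of 64 or an intensity trend, and 12 without the 4 arrays that stood apart. The single reversal was Ptprc at 24 h of TCDD, -0.072 on the average of its probe sets. Fitting only the arrays compared moved the counts of called members to 3 at 8 h and 6 at 48 h with TCDD, and to 13 in DMSO 24 h against untreated cells. With no filter the count at 24 h of TCDD was 7. The replicate block, which uses the pairing by day, moved the count at 36 h of TCDD to 13, and no other count by over 1.5 times. Leaving out 1 day gave counts of 4 to 6 at 8 h, 6 to 9 at 24 h and 5 to 8 at 48 h of TCDD, and 4 to 5 for the interaction, and the other counts moved by at most 1.5 times. The shares over all genes in those fits are not given here. Without quantile normalization the median of all genes moved by less than 0.1 log2 units in each comparison, the most in DMSO 48 h against DMSO 8 h, to 0.13 against 0.04, where the members called stayed at 10 higher and 14 lower. Signal limits Cr2 and Fcer2a, which stayed below the filter, and the DMSO 48 h groups of Fcrla and Aff3, with means of 5.90 and 6.56 log2 units against a filter at 6.21. The cause of these shifts was not tested, beyond the fewer arrays or changed set of genes that a setting itself brings.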
